A study of Chlamydomonas reinhardtii with 42 samples.

Results

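A set of 100 genes whose transcripts peaked after 15 min of high light (HL) and had dropped again after 60 min was followed through an acetate and light time course of the green alga Chlamydomonas reinhardtii. These transient HL peak genes were chosen by a score. For each medium and each day, the smaller of 2 log2 differences was taken, 15 min HL minus low light (LL) and 15 min HL minus 60 min HL. The score is the lowest of the 4 resulting values, so that a gene scores high only if it rose and fell again in both media and on both days. The 100 highest scores were taken out of 13886 genes that reached 1 CPM, a count scaled to the library total, in at least 9 libraries, from a table of 17741 genes.

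CC-125, a wild-type strain, was grown in liquid batches in TAP, a medium that contains acetate. The cells were then kept for 24 h in the mineral medium HSM at 5 µmol photons of light before the experiment. HSM forces the cells to live from photosynthesis, whereas 20 mM sodium acetate, given to one of the 2 groups, is an organic carbon source that is used beside it. RNA was taken in LL (5 µmol photons) at 15, 240 and 1440 min, and after 15 and 60 min of HL (300 µmol photons) started at 240 min (day 1) or at 1440 min (day 2). Each of the 14 conditions has 3 libraries, 42 in total, and all groups share the strain, the acclimation in HSM and the mineral medium.

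Light in excess of what photosynthesis can use is dissipated as heat, in algae mainly through energy-dependent quenching (qE), which needs an acidic thylakoid lumen and stress-related proteins of the antenna. LHCSR proteins carry out qE in Chlamydomonas, and PSBS, the qE sensor of land plants, is made in this alga only for a short time under strong or ultraviolet light. A ubiquitin ligase that combines CUL4, DDB1 and DET1 with the COP1-SPA1 complex holds expression of these proteins down in weak light. Among the genes described here, 5 belong to this network or to the early light-inducible proteins, namely PSBS1, PSBS2, DET1, SPA1 and ELI1.

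Total counts ranged from 19232757 to 34098899 per library, and the 100 most abundant genes took 36.7 to 76.3% of them. All 42 pairs of replicates differed by more than the sampling noise of their counts, with a chi-square per degree of freedom from 6.22 to 149. In bulk RNA, a smaller number of expressing cells and less RNA per cell cannot be told apart. Of the 100 members, 86 had at least 1 CPM in every library, whereas 10 were below 1 CPM in 10 or more libraries, and the least detected member reached 1 CPM in 9.

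The values that chose the members are given as a description only. Scores ran from 3.06 for PSBS2 down to 1.009 for Cre13.g585050, only 3 members scored 2 or more, and 17 scored 1.5 or more. Behind PSBS2 came Cre17.g740950 (2.79), PSBS1 (2.45), Cre17.g731050 (1.89), Cre01.g017100 (1.88), HST1 (1.80), Cre09.g393913 (1.77), Cre12.g552750 (1.76), Cre16.g657350 (1.72) and Cre17.g729650 (1.72). The limit fell within a continuum. Cre11.g467649 and Cre06.g306601 at ranks 98 and 99 scored 1.017 and 1.016, and the first genes left out, Cre16.g676600, Cre05.g241638 and Cre02.g086850, scored 1.008, 1.008 and 1.006. A score above 0 was found for 1475 genes. By median CPM over all libraries, which is not per length, Cre03.g176833, Cre17.g726850 and Cre02.g093750 gave the most reads and Cre07.g320400, Cre02.g077976 and Cre03.g207901 the fewest.

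The median member rose from LL to 15 min HL by 2.44 on the log2 CPM scale in HSM on day 1 and by 2.67 on day 2, and with acetate by 1.64 and 2.52. From 15 to 60 min the median member dropped by 2.21 and 2.61 in HSM and by 1.64 and 1.43 with acetate. Medians over all genes tested lay between -0.13 and 0.01 for these 8 differences. The acetate cultures gave the lowest value in nearly all members. The lowest of the 4 values was acetate on day 1 in 51 members, acetate on day 2 in 43, HSM on day 1 in 6 and HSM on day 2 in 0. A larger rise in HSM than with acetate was seen in 82 members on day 1 and in 62 on day 2. On day 2 the rise was larger than on day 1 in 93 members with acetate, but in only 53 in HSM. These counts come from the values that chose the members and have no share over all genes beside them.

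**Figure D1:**
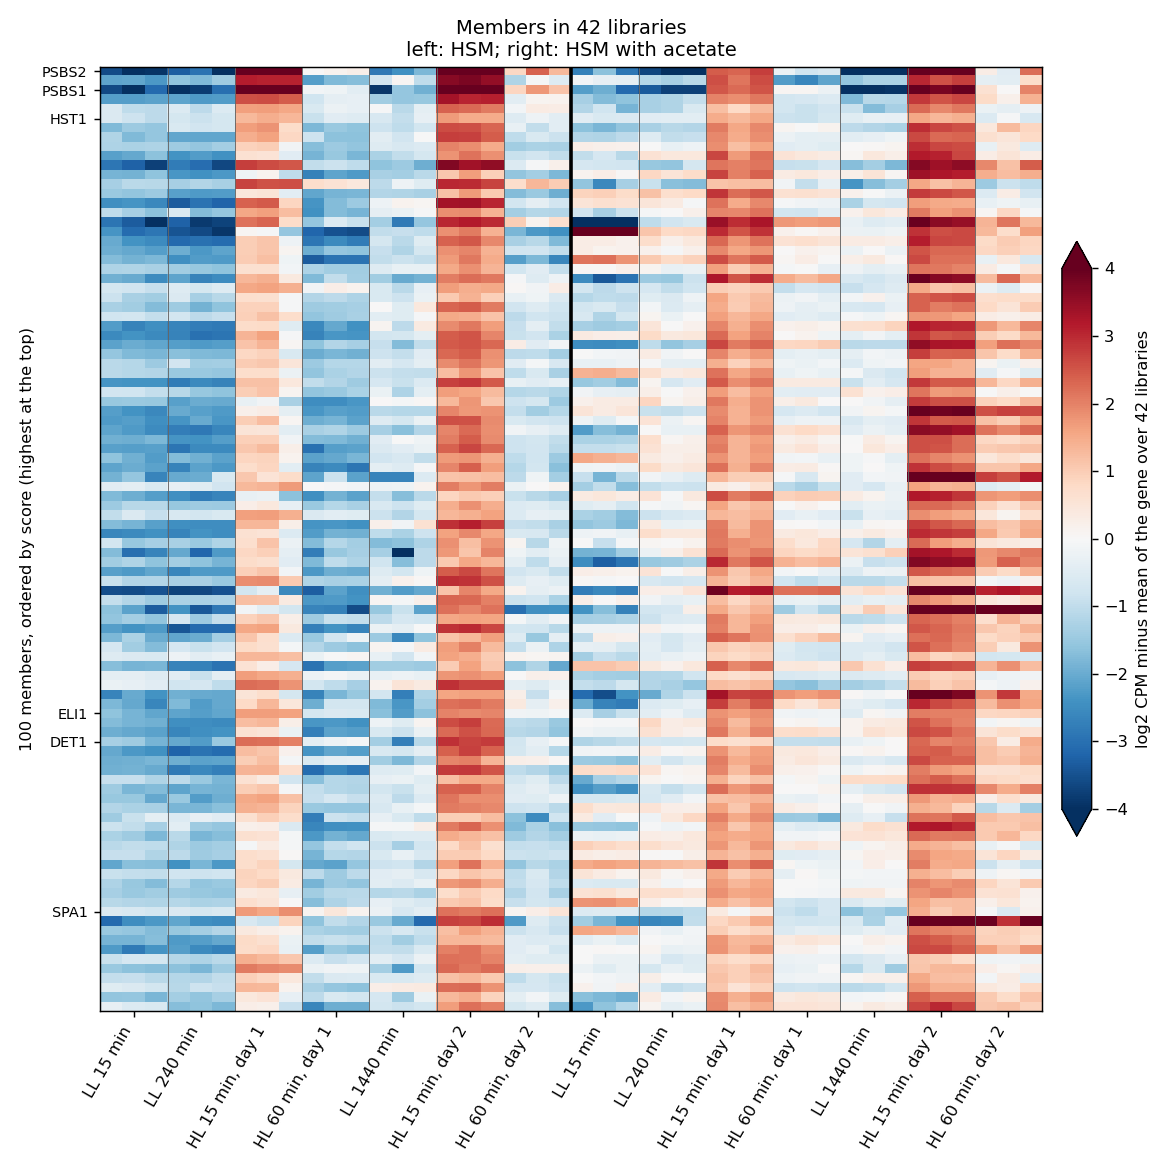
Log2 CPM of the 100 members (rows, ordered by score) in the 14 conditions (blocks of 3 columns, 1 per library, HSM on the left and acetate on the right), each row relative to its own mean over 42 libraries. The 4 blocks of 15 min HL stand out because the members were chosen for this. Of the members, 59 are highest with acetate on day 2 and 32 in HSM on day 2.

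Between the conditions the heights of the peaks differed. For 59 members the highest condition of all was 15 min HL with acetate on day 2, for 32 it was 15 min HL in HSM on day 2, and for 7 it was 15 min HL with acetate on day 1. The remaining 2 members were highest in LL, 15 min after acetate was given. In HSM, the median over members stood at 3.15 log2 CPM in LL at 240 min, 5.85 after 15 min HL and 3.47 after 60 min, and on day 2 at 4.36, 6.83 and 4.21. With acetate the same medians were 4.63, 6.66 and 4.86 on day 1 and 4.52, 7.42 and 5.78 on day 2.

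One library stood apart for these genes. Among the libraries of 15 min HL in HSM on day 1, replicate 3 was the lowest of the 3 in 91 of 100 members, and its level was at a median of 56.5% of the mean of replicates 1 and 2. On the log2 scale this is a median ratio of -0.82, against 0.00 over all genes tested. It split the members. There were 57 members under 60% of the other libraries, 20 between 60 and 80% and 23 above 80%. To the last belonged PSBS2 (104%), PSBS1 (100.5%), SPA1 (117%), HST1 (95.8%), ELI1 (95.04%), DET1 (86.7%) and Cre17.g740950 (96.8%). In the library set of 15 min HL with acetate on day 1, replicate 2 was the lowest in 94 members, by a median log2 ratio of -0.40. When the members were chosen anew without replicate 3 of 15 min HL in HSM on day 1, 88 of 100 were the same. LL in HSM at 1440 min also held a library, replicate 2, with the lowest scaling factor (0.454), and without it 89 of 100 were the same. Both repeats were added after the data had been seen.

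**Figure D2:**
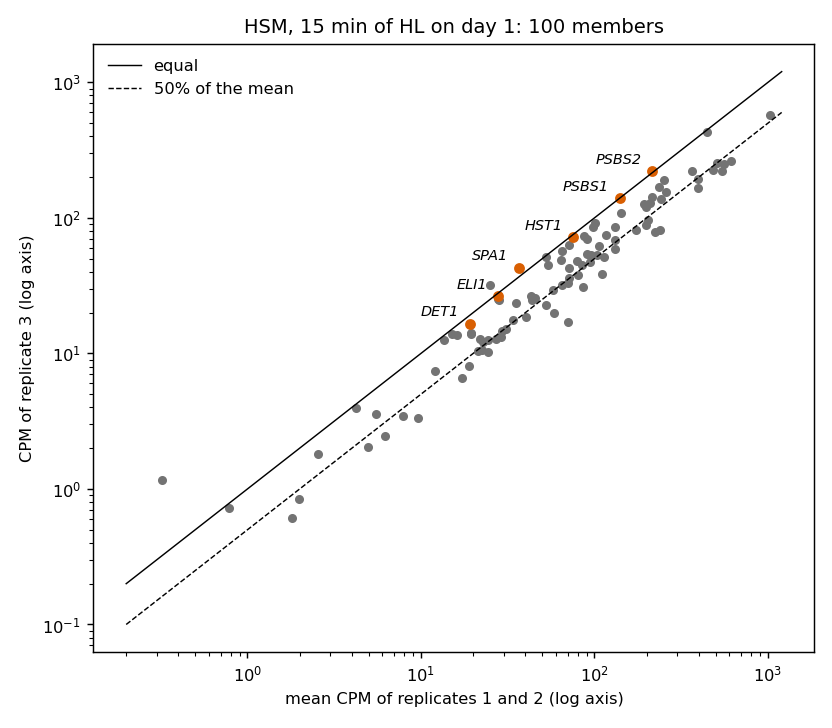
CPM of each member in replicate 3 of 15 min HL in HSM on day 1 (y-axis, log) against the mean of replicates 1 and 2 (x-axis, log), with annotated members in orange, a solid line for equal levels and a dashed line at 50% of the mean. Most members lie below the solid line, 57 of them under 60%, whereas the annotated photoprotection members and HST1 lie between 86.7 and 117%.

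PSBS1 and PSBS2, which encode the qE-associated PSBS protein, had the steepest peaks. PSBS2 stood at 0.407, 0.533 and 0.119 CPM in the 3 libraries of LL in HSM at 240 min, at 258, 172 and 223 CPM after 15 min HL, and at 4.67, 5.15 and 5.53 CPM after 60 min. On day 2 in HSM the same gene went from 0.578, 0.812 and 1.27 CPM to 463, 457 and 396 CPM, and then to 8.38, 24.4 and 11.5 CPM. Thus, a transcript close to the limit of detection in LL reached at least 172 CPM within 15 min, and no library of one stage overlapped with those of another. With acetate the peak of PSBS2 was 25.3, 23.6 and 32.0 CPM on day 1 and 157, 91.7 and 124 CPM on day 2. PSBS1 followed the same course, with 161, 119 and 141 CPM in HSM and 23.1, 19.8 and 23.8 CPM with acetate after 15 min HL on day 1. In LL, no library held more than 18 reads of PSBS1 or 26 of PSBS2. Both genes are close copies, and how reads shared between them were counted is not given in the sources used here, so the split of reads between them is uncertain.

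DET1, the substrate recognition subunit of the ubiquitin ligase that represses LHCSR transcription, peaked at 19.5, 18.9 and 16.6 CPM in HSM on day 1, from 0.937, 0.80 and 1.39 CPM in LL. After 60 min it was at 3.08, 3.53 and 3.83 CPM. With acetate its peak on day 1 was 6.81, 6.35 and 7.32 CPM, lower than in any HSM library, from 2.51, 2.41 and 2.46 CPM in LL.

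SPA1 is the scaffold partner of COP1 in Arabidopsis thaliana. Its transcript rose in HSM on day 1 from 7.78, 7.15 and 7.63 CPM to 38.7, 34.8 and 42.9 CPM and dropped to 12.6, 16.1 and 13.0 CPM. DDB1 and CUL4, also of the ligase, did not follow this course. Out of 13886 scores, DDB1 ranked 3192 and CUL4 5285, each with a negative score. CRCO, a transcription factor that acts on the qE genes, ranked 2023.

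ELI1, an early light-inducible protein, peaked between 26.5 and 36.3 CPM in all 12 libraries of 15 min HL. Its levels were 28.0, 27.8 and 26.5 CPM in HSM and 30.5, 27.3 and 31.9 CPM with acetate on day 1, and 34.6, 32.6 and 33.6 CPM and 36.3, 35.2 and 35.7 CPM on day 2. HST1, homogentisate solanesyltransferase, is the prenyl transfer enzyme of plastoquinone synthesis. It went from 17.8, 16.1 and 18.0 CPM in LL to 71.8, 79.5 and 72.5 CPM and back to 15.6, 21.4 and 20.4 CPM in HSM on day 1, and with acetate from 21.0, 21.6 and 21.5 CPM to 81.7, 71.6 and 84.6 CPM and back to 16.1, 15.6 and 18.0 CPM. For HST1 on day 1, the levels before and after the peak overlapped in HSM, and with acetate the later levels were lower in all 3 libraries.

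A further 3 members are listed as transcriptional regulators. Cre06.g262800 belongs to the PHD family, Cre17.g696300 to the C2H2 zinc finger family and Cre10.g431450 to the GNAT family of acetyltransferases. After 15 min HL with acetate on day 1, Cre06.g262800 was at 137, 86.4 and 108 CPM, from 57.1, 34.1 and 37.2 CPM in LL. In HSM it was at 25.7, 28.5 and 12.8 CPM, from 6.97, 7.86 and 7.75 CPM. Cre17.g696300 reached 80.8, 80.7 and 37.8 CPM in HSM and 165, 106 and 131 CPM with acetate. Levels of Cre10.g431450 were 40.8, 45.1 and 26.7 CPM in HSM and 102, 71.6 and 83.7 CPM with acetate. For these 3 genes the groups with and without acetate did not overlap on day 1, and in HSM replicate 3 was the low library each time.

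**Figure D3:**
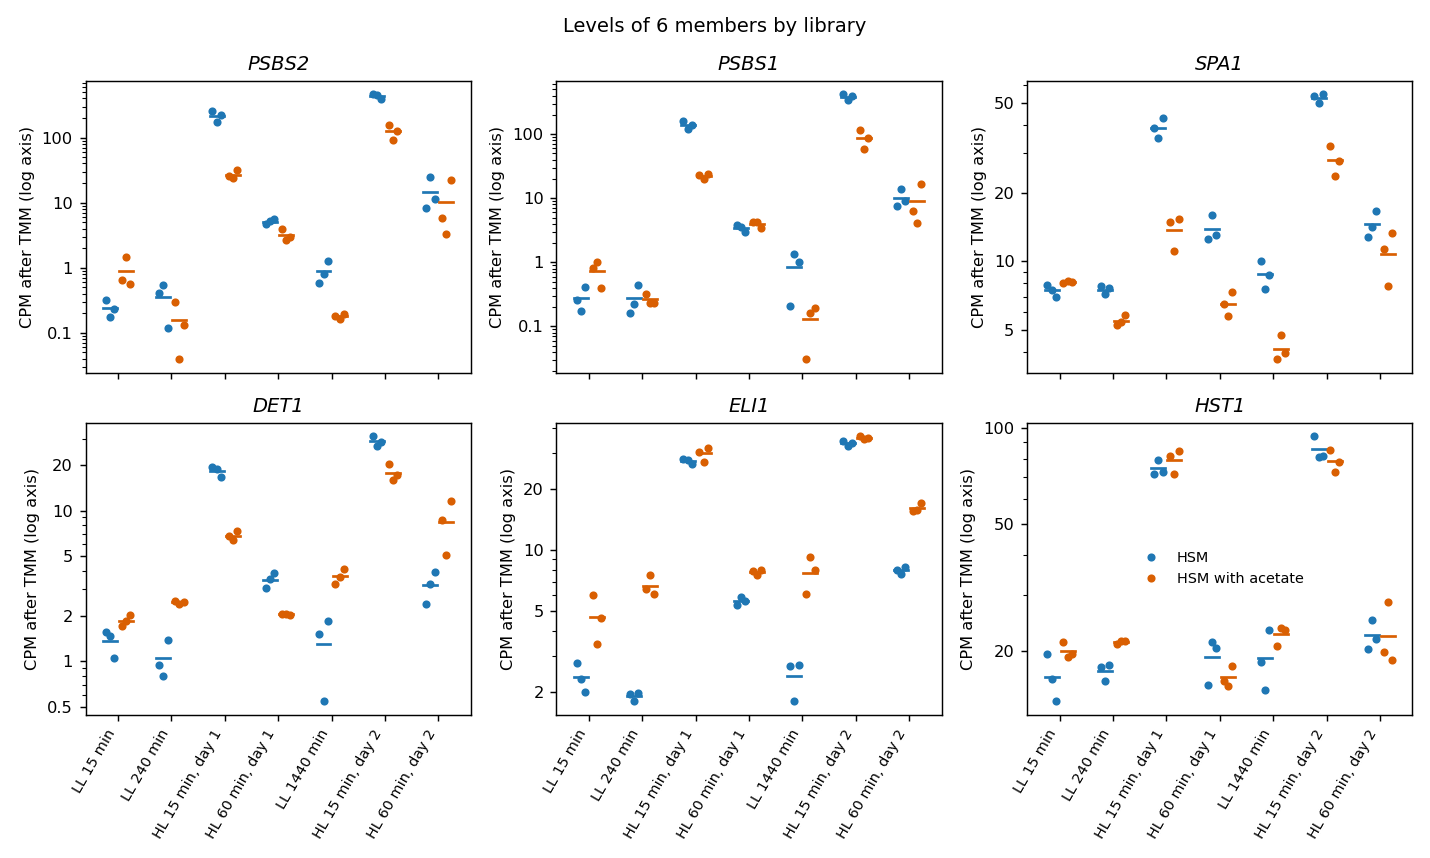
CPM on a log axis (y-axis) of PSBS2, PSBS1, SPA1, DET1, ELI1 and HST1 at the 7 sampling points (x-axis), in HSM (blue) and with acetate (orange), with 1 point per library and a bar at the mean of 3. The peaks of PSBS1, PSBS2, SPA1 and DET1 are lower with acetate on both days (DET1 on day 2 not with library size only), those of ELI1 lie between 26.5 and 36.3 CPM in both media, and the levels of HST1 overlap between media at most times.

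Measured against the lists of the study, 5 of 55 tested photoprotection genes (9.09%), 3 of 371 transcription factors (0.809%) and 1 of 71 genes of the carbon concentrating mechanism (1.41%) were members, beside 0.72% of all genes tested. The photoprotection genes also include LHCSR1, the qE protein that reached a score of only 0.03. LHCSR1 rose by 7.41 on the log2 scale in HSM on day 1 and by 6.82 with acetate on day 2, but dropped by 2.09 and by 0.03 from 15 to 60 min, and its transcript was thus still near the peak at 60 min with acetate on day 2. LHCSR3.2 and LHCSR3.1 ranked 11887 and 13418. ELI2 ranked 922, and the blue light receptor PHOT1 ranked 911.

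Most members have no gene name in the sources used here and are given by locus. Adjacent loci were common among them. Of the 100 members, 22 lay next to another member in the order of the annotated genes, in 11 pairs, whereas 151 of 13785 other genes tested (1.1%) had a member as neighbor. Among the pairs were Cre07.g320400 with Cre07.g320450, Cre12.g505050 with Cre12.g505100, Cre16.g657550 with Cre16.g657600, Cre09.g393876 with Cre09.g393913, and Cre10.g431400 with the GNAT gene Cre10.g431450. Reads of close or overlapping neighbors could be counted for the wrong one of the pair, and this was not tested.

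In likeness of course over the 14 condition means, PSBS1 was closest to PSBS2, with a Pearson correlation of 0.996 of the log2 CPM. Next to PSBS1 came Cre01.g054150 (0.970) and Cre17.g720050 (0.969), both outside the 100 members. Cre17.g740950 was most like the member Cre12.g486900 (0.965) and HST1 (0.964). These values describe 14 means that share the same libraries and the same steps of light.

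The first question left free by the score was whether acetate altered the level of these genes, since the score never compares media. The filter, however, counted libraries of both media. Cre02.g077976, with at most 18 reads in any HSM library, passed it only through acetate libraries. Its calls of higher with acetate, at 5 of the 7 times, are thus not free of the choice. Cre07.g320450, Cre07.g320400, Cre03.g207901 and Cre06.g276371 also reached 1 CPM in fewer than 9 HSM libraries. They passed the filter only with the acetate libraries, and the same limit holds for their calls. The LL libraries at 15 min were the only ones left out of the score, although they entered the filter and the scaling. In these, 63 members were higher and 11 lower 15 min after the supply of acetate (edgeR quasi-likelihood test with Benjamini-Hochberg adjustment over all genes, threshold 0.05), while 34.7% of all genes tested were higher and 39.3% lower. Members were thus called in either direction about as often as all genes, but mostly as higher. Their median log2 fold change before any HL was 1.03, against -0.12 over all genes. For 75 members the 3 libraries with and without acetate did not overlap, in either direction, as for 77.9% of all genes.

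Largest among them was Cre02.g095076, at 1135, 1047 and 1009 CPM with acetate and 11.16, 6.67 and 7.63 CPM in HSM (log2 fold change 6.97 ± 0.32 SE, n = 3, edgeR adjusted p = 2.53e-20). Cre02.g093750 was at 1111, 1158 and 867 CPM against 75.7, 66.7 and 72.3 CPM (3.87 ± 0.27, edgeR adjusted p = 3.78e-15). In both genes every library with acetate was far above those without. Cre17.g740950, at rank 2 in score, was higher as well, with 47.5, 41.2 and 40.3 CPM against 11.9, 12.096 and 10.5 CPM (1.90 ± 0.26, edgeR adjusted p = 5.34e-08). Among the lowered members, Cre06.g293900 was at 3.18, 1.78 and 2.32 CPM with acetate and 6.86, 7.71 and 5.81 CPM in HSM (-1.49 ± 0.31, edgeR adjusted p = 4.93e-05), and Cre13.g585050 had a log2 fold change of -1.12 ± 0.29 (edgeR adjusted p = 0.000806). ELI1 was higher by 0.98 ± 0.17 (edgeR adjusted p = 2.31e-06) and the PHD gene Cre06.g262800 by 1.80 ± 0.22 (edgeR adjusted p = 7.19e-09).

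At 240 min in LL, just before HL on day 1, 80 members were higher with acetate and 5 lower, beside 32.9% and 31.9% of all genes, and 86 did not overlap, beside 70%. Acetate cultures thus entered HL with more of these transcripts, by a median of 1.48 on the log2 scale, against 0.03 for all genes. Cre02.g095076 had come down to 123, 100.1 and 100.6 CPM with acetate but was still far above the 5.17, 4.58 and 3.81 CPM of HSM (4.58 ± 0.29, edgeR adjusted p = 1.91e-15). Cre16.g693202 was at 121, 119 and 150 CPM against 7.70, 8.09 and 8.98 CPM (3.98 ± 0.32, edgeR adjusted p = 6.91e-13).

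All 3 annotated regulators were among the genes raised at 240 min. The zinc finger gene Cre17.g696300 was at 66.7, 44.2 and 47.7 CPM with acetate against 8.11, 7.77 and 8.98 CPM (2.67 ± 0.21, edgeR adjusted p = 1.88e-13), the PHD gene Cre06.g262800 was higher by 2.51 ± 0.23 (edgeR adjusted p = 1.22e-11), and the GNAT gene Cre10.g431450 by 1.44 ± 0.16 (edgeR adjusted p = 1.32e-09). ELI1 was at 6.45, 7.54 and 6.11 CPM against 1.96, 1.82 and 1.99 CPM (1.79 ± 0.16, edgeR adjusted p = 4.07e-12), and DET1 was higher by 1.23 ± 0.26 (edgeR adjusted p = 0.000111). Moving the other way, Cre09.g393900 and Cre09.g393913 were lower by modest amounts, with log2 fold changes of -0.51 ± 0.15 and -0.50 ± 0.20 (edgeR adjusted p = 0.00381 and 0.0292). The call of 5 lowered members became 3 without replicate 1 or 3 of the acetate libraries or replicate 1 of HSM, and Cre09.g393913 was not called without these or replicate 3 of HSM (edgeR adjusted p = 0.0516 to 0.0909). Neither gene was called with library size only.

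After a day in LL the median difference was smaller. At 1440 min, 52 members were higher with acetate and 14 lower, beside 31.1% and 32.8% of all genes, and 69 did not overlap, beside 64.1%. The median log2 fold change was 0.48, against 0.00 for all genes. With library size as the sole scaling, the members split into 88 higher and 2 lower. Without replicate 3 of HSM, 9 were lower. Cre16.g693202 led again, with 147, 175 and 148 CPM against 26.7, 21.7 and 24.8 CPM (2.68 ± 0.30, edgeR adjusted p = 1.41e-09), followed by Cre06.g276400, at 3.73, 4.07 and 5.07 CPM against 0.991, 0.0902 and 1.21 CPM (2.34 ± 0.38, edgeR adjusted p = 1.58e-06).

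The photoprotection genes diverged at this time. SPA1 was lower with acetate, at 3.70, 4.72 and 3.97 CPM against 10.07, 7.58 and 8.73 CPM (-1.11 ± 0.17, edgeR adjusted p = 4.66e-07), whereas ELI1 was higher by 1.64 ± 0.16 and DET1 by 1.40 ± 0.26 (edgeR adjusted p = 4.24e-11 and 1.57e-05). PSBS1 and PSBS2 were lower by 2.51 ± 0.79 and 2.21 ± 0.86 on the log2 scale (edgeR adjusted p = 0.00603 and 0.0243). With library size only, PSBS2 was not called (edgeR adjusted p = 0.122). These PSBS values rest on at most 6 reads per library with acetate and at most 16 and 20 in HSM, and PSBS2 was not called without replicate 1 of acetate or replicate 3 of HSM, nor PSBS1 without replicate 2 of HSM, and limma-voom called neither (adjusted p = 0.0703 and 0.125).

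At the peak on day 1, after 15 min HL, 71 members were higher with acetate and 17 lower, beside 33.8% and 31.6% of all genes, and 82 did not overlap, beside 69.5%. The median was 0.92, against 0.04 for all genes. The split was 63 higher and 20 lower without replicate 3 of HSM, the library that stood apart, and 80 higher and 5 lower with library size only. Cre16.g693202 was at 1494, 898 and 980 CPM with acetate and 61.6, 78.6 and 17.0 CPM in HSM (4.42 ± 0.32, edgeR adjusted p = 6.48e-14). Cre02.g095076 was at 450, 328 and 428 CPM against 60.5, 55.9 and 19.7 CPM (3.15 ± 0.26, edgeR adjusted p = 1.94e-12). In both genes the low HSM library was replicate 3, and the media did not overlap with or without it.

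PSBS, SPA1 and DET1 went the other way on day 1. PSBS2 and PSBS1, with the levels given above, fell with acetate by 3.01 ± 0.38 and 2.66 ± 0.31 on the log2 scale (edgeR adjusted p = 1.88e-08 and 3.59e-09). SPA1 was at 15.0, 11.09 and 15.3 CPM against 38.7, 34.8 and 42.9 CPM (-1.49 ± 0.15, edgeR adjusted p = 1.08e-10). DET1, higher with acetate before the light step, was lower at the peak (-1.42 ± 0.19, edgeR adjusted p = 8.56e-08), while ELI1 had a log2 fold change of 0.12 and was not called. Cre17.g731050, at rank 4 in score, was at 46.4, 42.5 and 50.4 CPM against 70.5, 72.8 and 62.8 CPM (-0.56 ± 0.18, edgeR adjusted p = 0.00566), but 0.085 with library size only. For the PHD gene Cre06.g262800 the log2 fold change was 2.31 ± 0.22 (edgeR adjusted p = 4.25e-11).

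At the peak on day 2, 48 members were higher with acetate and 22 lower, beside 37.8% and 33.1% of all genes, and 72 did not overlap, beside 72.7%. This was the smallest median of the 7 times, 0.34, against 0.14 for all genes. Under library size only, 73 were higher and 7 lower. The neighbors Cre07.g320450 and Cre07.g320400 had the largest increases, the former with 411, 305 and 395 CPM against 14.6, 12.24 and 14.19 CPM (4.76 ± 0.26, edgeR adjusted p = 9.51e-18) and the latter with 129, 80.9 and 133 CPM against 4.36, 4.22 and 5.18 CPM (4.64 ± 0.36, edgeR adjusted p = 6.5e-14). Both passed the filter only with the acetate libraries, so these calls are not free of the choice.

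PSBS1 was again lower with acetate at this peak, with 117, 58.2 and 86.6 CPM against 419, 343 and 395 CPM (-2.14 ± 0.30, edgeR adjusted p = 9.47e-08), and PSBS2 had a log2 fold change of -1.82 ± 0.36 (edgeR adjusted p = 3.42e-05). SPA1 (-0.92 ± 0.15, edgeR adjusted p = 9.77e-07) and Cre17.g740950 (-0.85 ± 0.24, edgeR adjusted p = 0.00225) were also lower. When scaled by library size only, these 2 had lower values that were no longer called. DET1 was at 20.4, 15.8 and 17.2 CPM against 31.1, 26.7 and 28.6 CPM (-0.69 ± 0.19, edgeR adjusted p = 0.00137), but its log2 fold change was 0.039 with library size only.

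After 60 min HL, the surplus with acetate was widespread. On day 1, 81 members were higher and 8 lower, beside 22.9% and 27.2% of all genes, with a median of 1.55 against -0.09 and 91 members without overlap, beside 64.5% of all genes. On day 2, 87 were higher and 5 lower, beside 36% and 38% of all genes, with a median of 1.48 against -0.05 and 90 without overlap, beside 73.9%. The few lowered members of day 2 numbered 3 without replicate 2 of acetate or replicate 3 of HSM, and 8 without replicate 3 of acetate.

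Individual genes differed widely at 60 min. On day 2, Cre07.g320450 was at 165, 117 and 214 CPM with acetate but at 0.314, 0.506 and 0.518 CPM in HSM (8.54 ± 0.35, edgeR adjusted p = 2.17e-21), and Cre07.g320400 was at 10.19, 5.06 and 23.8 CPM against 0.0627, 0.389 and 0.296 CPM (5.74 ± 0.48, edgeR adjusted p = 4.55e-13). In HSM this pair had returned to almost nothing, with at most 14 and 10 reads per library. The calls of this pair are again not free of the choice, since it passed the filter only with the acetate libraries. On day 1, Cre16.g693202 was at 463, 470 and 494 CPM against 10.3, 22.7 and 18.3 CPM (4.80 ± 0.33, edgeR adjusted p = 5.44e-14) and Cre12.g555500 at 14.18, 12.9 and 14.6 CPM against 0.566, 1.09 and 1.35 CPM (3.78 ± 0.36, edgeR adjusted p = 1.32e-10).

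SPA1 remained lower with acetate at 60 min on day 1, at 6.47, 5.74 and 7.33 CPM against 12.6, 16.1 and 13.0 CPM (-1.09 ± 0.15, edgeR adjusted p = 2.7e-07), as did Cre02.g079750 (-1.05 ± 0.16, edgeR adjusted p = 1.06e-06). Cre13.g583050 on day 2 was at 3.00, 4.61 and 4.103 CPM against 13.9, 21.5 and 17.2 CPM (-2.17 ± 0.24, edgeR adjusted p = 4.75e-10), and Cre02.g082877 had a log2 fold change of -0.81 ± 0.15 (edgeR adjusted p = 6.43e-06). DET1 was above HSM again on day 2, at 8.68, 5.06 and 11.6 CPM against 2.42, 3.23 and 3.92 CPM (1.41 ± 0.21, edgeR adjusted p = 2.45e-07), and ELI1 was higher by 1.01 ± 0.13 (edgeR adjusted p = 2e-08).

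**Figure D4:**
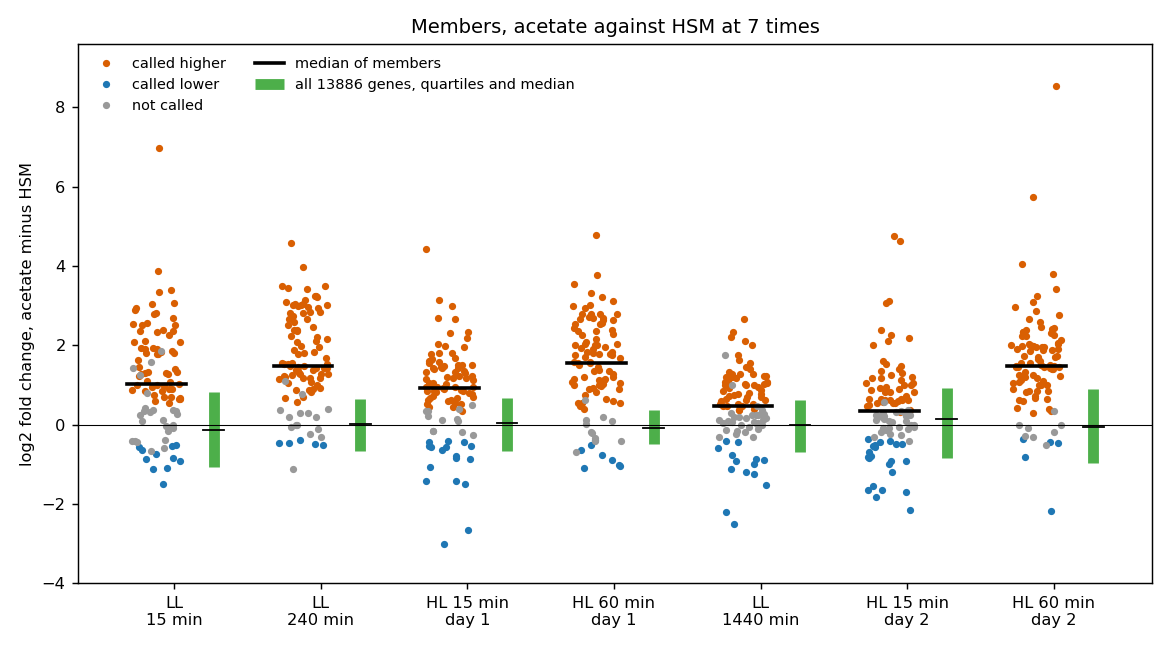
Log2 fold change of acetate against HSM (y-axis) for each of the 100 members (points) at the 7 sampling points (x-axis), with the median of the members as a bar and the median and quartiles of all 13886 genes in green beside them. Members lie mostly above the median of all genes, least so at 15 min HL on day 2, where the medians are 0.34 and 0.14. Orange and blue points were called higher and lower.

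Over the 7 times, 86 members had more calls higher than lower with acetate, 11 had more lower than higher, and 3 had as many of each, beside 44.4%, 48.2% and 7.4% of all genes. Calls of higher at 5 or more times were made for 69 members and of lower at 5 or more for 6, beside 20.8% and 20.3% of all genes. Higher at some times and lower at others were 26 members, beside 41.5%. For 22 members the call was higher at all 7 times (22%), beside 6.79% of all genes. They include Cre03.g207901, which passed the filter only with the acetate libraries. Lower at all 7 times were 0 members with edgeR (1 at an unadjusted p of 0.05), beside 5.56%. In the 3 LL times, 35 members were higher each time and 2 lower, beside 13.8% and 12.7% of all genes. SPA1 was lower at 6 times, and DET1 was higher at 3 and lower at 3. HST1 was called at none of the 7 times. Whether the effect of acetate on DET1 differed between times was not tested. The others with 5 or more calls of lower were Cre02.g079750, Cre17.g715000 and Cre09.g393900 with 6 each and Cre13.g583050 and Cre02.g082877 with 5 each, and Cre09.g393900 was also higher once. In 15 min HL in HSM on day 1, replicate 3 of Cre02.g079750 was at 128% of the other libraries, of Cre17.g715000 at 87.8%, of Cre13.g583050 at 97.5%, of Cre02.g082877 at 91.9% and of Cre09.g393900 at 75.8%.

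Taking all 55 tested photoprotection genes of the study, acetate gave 15 higher and 19 lower at 15 min LL, 21 and 21 at 240 min and 21 and 27 at 1440 min. After 15 min HL, 12 were higher and 29 lower on day 1 and 18 and 27 on day 2, and after 60 min HL the counts were 16 and 20 on day 1 and 25 and 23 on day 2. The shares of all genes called at these times are those given above.

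The choice fixed that 60 min HL lies below the peak but left free whether it lies above or below LL. Since the same libraries entered the choice, these counts are a description beside the background. The fold changes and adjusted p-values of single members for 60 min HL against LL are likewise a description. In HSM on day 1, 36 members were higher at 60 min HL than in LL and 10 lower, beside 37% and 28.5% of all genes, and in HSM on day 2, 27 were higher and 33 lower, beside 36.8% and 32.1%. With acetate on day 1, 23 were higher and 20 lower, beside 27.3% and 24.5%. In these 3 settings the median log2 fold changes of the members were near 0, at 0.27, -0.02 and 0.00. Those of all genes were 0.13, 0.08 and 0.04. Single members moved both ways, from -1.47 to 3.86, -1.62 to 4.09 and -2.13 to 4.28. With library size only, the splits were 67 higher and 2 lower, 62 and 2, and 30 and 4, in that order.

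Acetate cultures on day 2 did not come down as far. After 60 min HL, 79 members were above LL and 3 below, beside 39.9% and 36.3% of all genes, by a median of 1.05 against 0.05 for all genes. Without overlap were 83 members, beside 74.7% of all genes. The same count was 57 in HSM on day 1, 60 with acetate on day 1 and 59 in HSM on day 2, beside 69.9%, 68.2% and 67.8% of all genes. Expressed as a share of the log2 rise, the median member retained 43.1% with acetate on day 2, but 10.196% in HSM on day 1, 0.93% with acetate on day 1 and -0.91% in HSM on day 2. Below LL on average were 12, 33, 50 and 52 members, respectively. Under library size only, 48 members were higher and 12 lower with acetate on day 2. The 3 lowered members were 1 without replicate 1 or 3 of 60 min HL or replicate 2 of LL, and 7 without replicate 2 of 60 min HL.

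PSBS1 and PSBS2 had the highest fold changes of 60 min HL against LL in each setting. PSBS2 was above LL by 3.86 ± 0.58 in HSM and 4.28 ± 0.65 with acetate on day 1, and by 4.09 ± 0.52 and 5.79 ± 0.60 on day 2 on the log2 scale (edgeR adjusted p = 6.01e-07, 9.7e-07, 1.71e-08 and 1.04e-10). With acetate on day 2 its libraries at 60 min were at 5.72, 3.33 and 22.1 CPM, with a wide spread. PSBS1 was above LL by 3.63 ± 0.52, 3.90 ± 0.48, 3.77 ± 0.45 and 6.10 ± 0.53 in the same order (edgeR adjusted p = 2.21e-07, 1.89e-08, 4.21e-09 and 1.28e-12). These folds start from few reads in LL, in libraries that entered the choice. In all 4 settings, 14 members were higher than LL and 0 lower (edgeR, also 0 at an unadjusted p of 0.05), against 1652 and 1306 of 13886 genes. Called in none were 3 members, beside 522 of 13886 genes.

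Other members undershot. Cre13.g580900 was at 6.26, 6.99 and 7.03 CPM after 60 min HL in HSM on day 1, below the 28.8, 14.31 and 13.0 CPM of LL (-1.47 ± 0.22, edgeR adjusted p = 4.95e-07), and likewise on day 2 (-1.62 ± 0.21, edgeR adjusted p = 4.23e-08). Cre17.g726850 was at 91.7, 93.7 and 86.4 CPM against 188, 185 and 191 CPM in HSM on day 1 (-1.05 ± 0.17, edgeR adjusted p = 2.05e-06). Cre12.g512200 had a log2 fold change of -1.33 ± 0.22 in HSM on day 2 (edgeR adjusted p = 2.27e-06). With acetate on day 1, Cre08.g360850 was at 0.799, 0.817 and 0.603 CPM against 2.09, 3.23 and 4.32 CPM (-2.13 ± 0.32, edgeR adjusted p = 6.69e-07), and Cre16.g657600 was lower on day 1 (-1.39 ± 0.25, edgeR adjusted p = 1.33e-05) and on day 2 (-0.72 ± 0.27, edgeR adjusted p = 0.0158, not called without replicate 1 or 3 of HL or replicate 2 of LL). Cre13.g566400 was at 3.37, 5.02 and 2.87 CPM against 5.69, 7.33 and 6.77 CPM with acetate on day 2 (-0.81 ± 0.18, edgeR adjusted p = 0.000163).

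**Figure D5:**
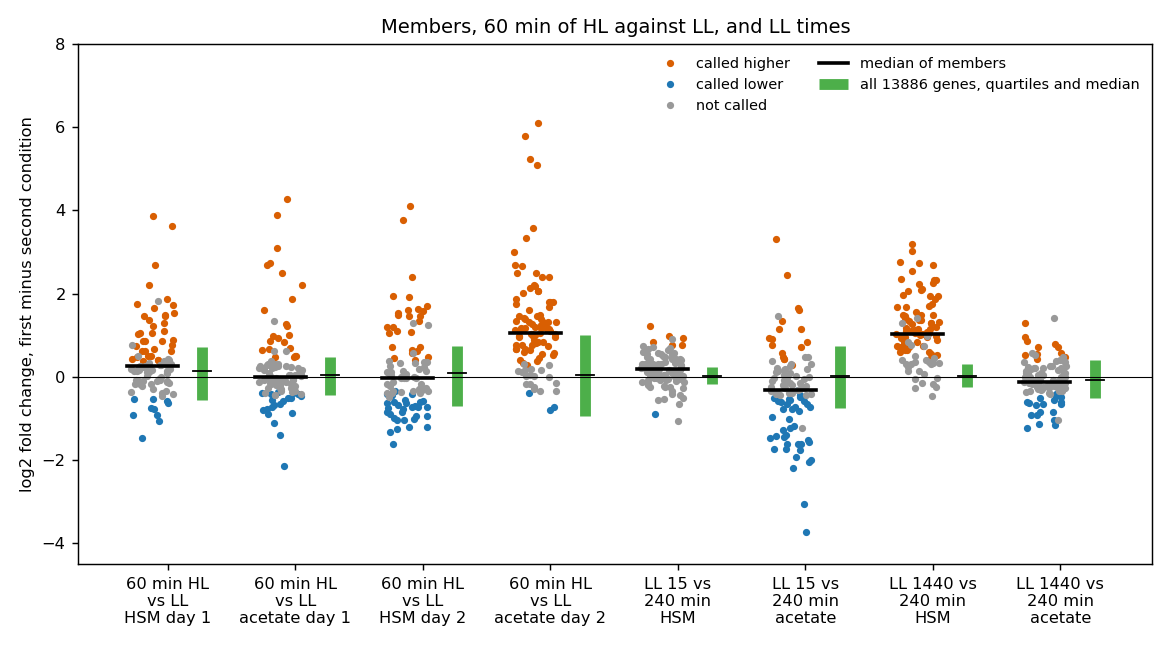
Log2 fold change (y-axis) of the 100 members (points) for 60 min HL against LL in each medium and day and for LL at 15 or 1440 min against 240 min in each medium (x-axis), with the median of the members as a bar and the median and quartiles of all 13886 genes in green. The members center near the median of all genes in HSM and with acetate on day 1 but lie above it with acetate on day 2, where their median is 1.05, and in HSM at 1440 min, where it is 1.04.

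The LL level itself changed with time. In HSM, little separated 15 from 240 min. At 15 min, 6 members were higher and 1 lower than at 240 min, beside 2.06% and 2.14% of all genes, and 43 did not overlap, beside 28.1%. Cre13.g585050 was at 5.24, 4.48 and 4.29 CPM at 15 min and 2.00, 2.13 and 1.87 CPM at 240 min (1.22 ± 0.28, edgeR adjusted p = 0.0104), Cre03.g176833 was higher by 0.98 ± 0.24 (edgeR adjusted p = 0.0144), and Cre09.g393913 was lower, at 8.38, 10.3 and 9.80 CPM against 18.5, 16.7 and 17.4 CPM (-0.88 ± 0.21, edgeR adjusted p = 0.0112). Scaled by library size only, 1 was higher and 6 lower, and without replicate 3 of 240 min, 2 were higher and neither Cre13.g585050 nor Cre03.g176833 was called. The latter was also lost without replicate 3 of 15 min (edgeR adjusted p = 0.0517).

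With acetate, 17 members were higher and 40 lower at 15 min than at 240 min, beside 34.9% and 32.4% of all genes, and 71 did not overlap, beside 74.3%. When scaled by library size only, the split was 3 and 81. The extremes lay far apart. Cre02.g095076 fell from 1135, 1047 and 1009 CPM at 15 min to 123, 100.1 and 100.6 CPM at 240 min (log2 fold change 3.2995 ± 0.26, higher at 15 min, edgeR adjusted p = 3.86e-13), whereas Cre06.g278167 stood at 0.824, 1.22 and 0.958 CPM at 15 min and 11.5, 13.37 and 15.2 CPM at 240 min (-3.73 ± 0.41, edgeR adjusted p = 6.26e-10). Cre16.g693202 also built up between the times, from 15.0, 16.9 and 15.0 CPM to 121, 119 and 150 CPM (-3.05 ± 0.31, edgeR adjusted p = 1.07e-10). PSBS2 was higher at 15 min (2.44 ± 0.85, edgeR adjusted p = 0.0114), with at most 26 reads per library, and it was not called without replicate 2 of 15 min (1.89, edgeR adjusted p = 0.1011). Neither limma-voom (adjusted p = 0.0716) nor library size only (edgeR adjusted p = 0.0581) called it.

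From 240 to 1440 min in LL, most members increased in HSM, although the libraries of both times entered the score. There, 72 members were higher at 1440 min and 0 lower, beside 12.6% and 7.86% of all genes, by a median of 1.04 against 0.02 for all genes, and 75 did not overlap, beside 31.6%. The count of 0 lower members with edgeR was also 0 at an unadjusted p of 0.05, and 0 with DESeq2 and limma-voom. The neighbors Cre12.g505100 and Cre12.g505050 led. The former went from 4.36, 5.73 and 4.85 CPM to 38.8, 49.5 and 47.5 CPM (3.18 ± 0.27, edgeR adjusted p = 6.7e-11) and the latter from 18.9, 23.8 and 23.5 CPM to 175, 161 and 202 CPM (3.02 ± 0.22, edgeR adjusted p = 3.13e-12). In the same direction moved Cre02.g095076 (2.69 ± 0.28, edgeR adjusted p = 5.97e-09), the zinc finger gene Cre17.g696300 (2.11 ± 0.20, edgeR adjusted p = 1.77e-09) and the PHD gene Cre06.g262800 (2.05 ± 0.23, edgeR adjusted p = 2.95e-08). With library size only, 46 were higher and 1 lower.

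With acetate, 11 members were higher at 1440 min and 19 lower, beside 23.3% and 28.8% of all genes, and 44 did not overlap, beside 61.9%. Under library size only, 10 were higher and 7 lower. Cre12.g505100 moved opposite to its course in HSM, from 63.2, 56.0 and 43.9 CPM to 18.7, 27.8 and 26.2 CPM (-1.17 ± 0.24, edgeR adjusted p = 0.000109), and Cre16.g657600 had a log2 fold change of -1.22 ± 0.25 (edgeR adjusted p = 0.000109). Cre12.g555500 and Cre07.g320450 were higher by 1.28 ± 0.35 and 0.96 ± 0.27 (edgeR adjusted p = 0.00266 and 0.00299). Between media these time courses were not tested against each other.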

How the data were processed

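RNA was sequenced from 42 libraries of 14 conditions with 3 biological replicates each, grouped by the sample labels. The authors prepared stranded mRNA libraries, removed adapters with BBduk, mapped reads with STAR (version 2.5.3 in the submitters' processing notes) to the Phytozome version 5 transcriptome, and deposited raw counts per gene made by HTSeq-count on the reverse strand. The deposited counts are not normalized.

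A gene was kept if 9 or more libraries had 1 CPM or more of it, which left 13886. After TMM scaling, edgeR 4.0.16 (glmQLFTest) was run in R 4.3.3, in one model of all 42 libraries with 1 coefficient per condition, and p-values were adjusted over all genes (Benjamini-Hochberg, threshold 0.05). The score used log2 CPM with a prior count of 2. Per-library levels are CPM after TMM, in the order of replicates 1 to 3, with log2 fold changes ± SE. Levels of different genes are not per length and are not comparable. The steps were tested on simulated data. Tables and plots were made with Python 3.11.15, pandas 2.3.3 and matplotlib 3.10.9.

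The members and lists were chosen with earlier results of these data known. Genes named are the 10 highest in score, ranks 98 to 103, those in the study's lists, the 3 highest and 3 lowest in median level, and in each comparison the 2 called members with the highest and the 2 with the lowest log2 fold change. Members lowered by acetate at 5 or more times and the adjacent pairs were named after their values had been seen. So were the members that passed the filter only with the acetate libraries. Cre17.g740950, Cre17.g731050, Cre02.g095076, SPA1, DET1, ELI1 and the 3 regulators were also given in further comparisons, after their values had been seen. Symbols come from the study's lists, and neighbors from RefSeq (assembly v5.5, 17738 identifiers matched), whose coordinates were not used.

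Alternatives were RLE normalization, library size only, no filter, DESeq2 1.42.0, limma-voom (3.58.1), only the libraries compared, a block of the replicate number or of the number in brackets in the title, and each library left out in turn. The replicate numbers were checked for pairing by the correlation of deviations from the condition means (-0.17 to 0.44). All 3 pairs passed 0.1 only for 60 min HL against LL in HSM on day 2, where r was 0.182 to 0.393. A planned look at promoter motifs, protein lengths and product groups was not made, since no sequences or products were at hand.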

Additional observations from a re-analysis of the deposited data

How the results depend on the processing

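The scaling mattered most, since library size only moved the median of all genes by -0.93 to 0.99 on the log2 scale, and RLE by -0.096 to 0.09. Relative to the median of all genes, the members' median was 1.15 at 15 min LL, 1.45 at 240 min and 1.65 at 60 min HL on day 1 with library size only, against 1.15, 1.45 and 1.64 with TMM. With library size only, the members called with acetate were 0 lower at 240 min LL, 88 higher and 2 lower at 1440 min, 5 lower at 15 min HL on day 1, 73 higher and 7 lower on day 2, and 4 and 8 lower at 60 min HL on days 1 and 2. For 60 min HL against LL it gave 67 higher and 2 lower in HSM on day 1, 4 lower with acetate on day 1, 62 higher and 2 lower in HSM on day 2, and 48 higher and 12 lower with acetate on day 2. For LL at 15 against 240 min it gave 1 higher and 6 lower in HSM and 3 higher and 81 lower with acetate, and for 1440 against 240 min 46 higher and 1 lower in HSM and 7 lower with acetate. DET1 at 15 min HL on day 2 (0.039) and Cre17.g731050 on day 1 (0.085) changed sign. With only the libraries compared, 31 and 5 members were lower at 60 min HL than in LL with acetate on days 1 and 2, and 14 were higher and 2 lower at 15 than at 240 min LL in HSM, where DESeq2 called 10 higher. Leaving out 1 library each, the acetate counts ranged from 60 to 64 higher and 9 to 12 lower at 15 min LL, 78 to 80 and 3 to 4 at 240 min, 44 to 56 and 9 to 13 at 1440 min, 63 to 73 and 13 to 20 at 15 min HL on day 1, 40 to 50 and 17 to 24 on day 2, 79 to 81 and 7 to 8 at 60 min HL on day 1, and 81 to 84 and 3 to 8 on day 2. For 60 min HL against LL the ranges were 30 to 38 and 7 to 10 (HSM, day 1), 19 to 25 and 14 to 22 (acetate, day 1), 22 to 28 and 24 to 35 (HSM, day 2), and 71 to 79 and 1 to 7 (acetate, day 2). For LL they were 2 to 5 and 1 to 1 (15 against 240 min, HSM), 14 to 17 and 36 to 41 (acetate), 64 to 72 and 0 to 0 (1440 against 240 min, HSM), and 8 to 12 and 11 to 19 (acetate, 11 without replicate 1 of 240 min). Membership shared 81 to 89 of 100 when a replicate number was left out, 71 with library size only and 93 with RLE, and 52 members were chosen in all 9 settings. Of 81 printed fold changes, 68 kept their sign and call under every alternative. A block of the replicate number changed none of these calls and moved no count by over 1.5 times. Replicate numbers as a block gave 27 higher and 34 lower for 60 min HL against LL in HSM on day 2, where the pairing check was met, and 9 higher and 1 lower for LL at 15 against 240 min in HSM. The cause of these changes was not tested. Precision is limited by 3 libraries per condition, and for PSBS in LL by read numbers.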
